A study of Mus musculus with 4 samples.

Results

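Prostate RNA of C57BL/6 mice given a tocopherol mixture was set against that of C57BL/6 mice given oil, with 1 array a group, 2 of the 4 arrays of the study. The pair was chosen by the sample labels alone. The mice were males of 8 weeks. One group had received 600 mg/kg of γ-TmT (TmT below), a mixture of tocopherols rich in γ-tocopherol, by oral gavage, and the other olive oil. All had eaten an AIN-76A diet in the week before, had fasted overnight, and were killed with CO2 12 h after the gavage, when the prostate was frozen. The other 2 arrays hold prostates of TRAMP mice of the same age, given TmT or oil in the same way. TRAMP mice carry a viral oncogene under a probasin promoter, which acts in prostate epithelium. Their values are given here only beside those of C57BL/6. Each group had 3 mice and 1 array, and the labels do not say whether RNA was pooled or came from a single mouse. With no replicate array there is no error between animals, so no difference below was tested, and a group cannot be told apart from its array.

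Tocopherols are the forms of vitamin E, lipid-soluble antioxidants that are absorbed with fat and carried in lipoproteins. The liver protein encoded by Ttpa favours α-tocopherol for export, while γ-tocopherol is broken down by side-chain oxidation through Cyp4f enzymes. Antioxidant enzymes are under the transcription factor Nrf2, held in check by Keap1, and cytosolic chaperones are under heat shock factors, which respond to misfolded protein. Both systems are often examined after a dietary antioxidant. The mouse prostate is a gland whose luminal cells secrete proteins such as probasin under androgen control.

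Levels are on a log2 scale, as the spot signal over the 75th percentile of its array, so that a level of 0 is that percentile and a difference of 1 is 2-fold. A gene was called measured where its brightest probe was well above background on both C57BL/6 arrays by the scanner software. The error beside a difference, given as ±, is the scanner software's error of the spots carried to log2. It covers the spot and not the animal. The array after oil was the brighter, with 74.1% of 43379 spots well above background and a 75th percentile of 161.0 signal units, against 68.1% and 117.5 after TmT. No spot was saturated. On both arrays, 245 probes were printed 10 times, and the median SD of their spots was 0.14 after oil and 0.13 after TmT. Prostate markers were present on both arrays, beside markers of other tissues. All 7 luminal markers and all 5 secretion markers were well above background on both arrays, with the secretion markers between 5.33 and 9.07 after oil and between 5.96 and 9.50 after TmT. Markers of smooth muscle, fibroblasts, endothelium, lymphocytes, adipocytes, skeletal muscle, Schwann cells and seminal vesicle were also all above background on both. The seminal vesicle markers were as bright as the secretion markers, between 6.66 and 9.76 after oil and between 6.49 and 10.02 after TmT. The skeletal muscle marker Myh4 stood at 6.54 and 6.29. Of the epididymal markers only Crisp1 was, at 2.20 and 2.84.

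Most of the prostate transcriptome sat within 2-fold between the groups. Of 27974 genes on the array, 18665 were measured, and of these 582 (3.12%) were at least 2-fold higher after TmT and 490 (2.63%) at least 2-fold lower, 5.74% in all. The median difference was 0.02, the quartiles were -0.28 and 0.31, and a 4-fold difference was reached by 44 genes upward and 18 downward. Dim genes made up most of them. With the genes cut by mean level into 5 bins of 3733, the share past 2-fold was 9.56% in the dimmest bin, 9.16% in the next and 2.04% in the brightest. Among the probes printed 10 times, whose value averages many spots, 189 were measured and 1.59% were past 2-fold. A normexp background correction fitted without spots of high local background adds an offset of 50 signal units, which shrinks the differences of dim genes, and left 122 genes past 2-fold upward and 56 downward.

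**Figure D1:**
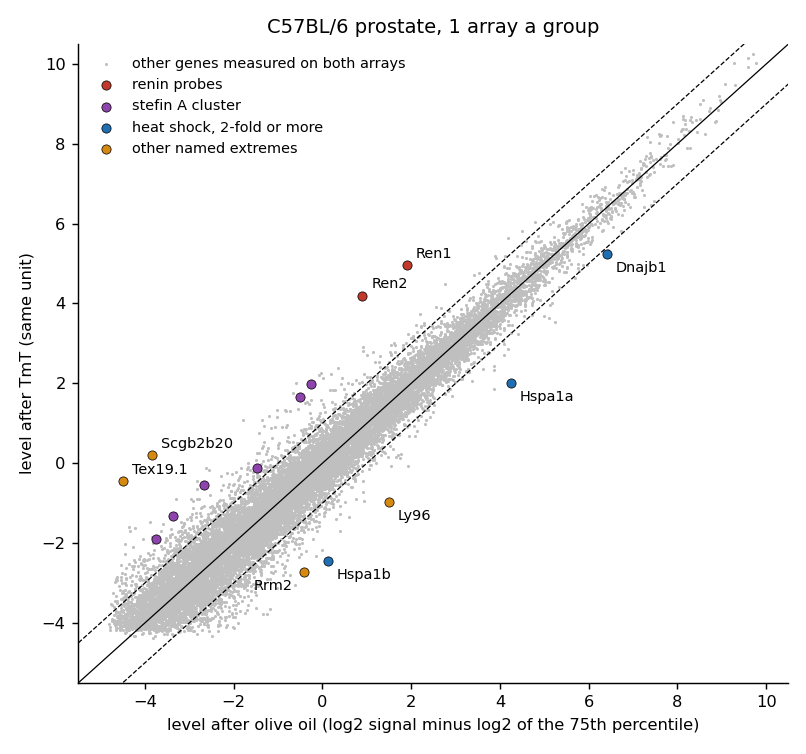
Level of each of the 18665 measured genes after olive oil (x) and after TmT (y), both as log2 signal minus log2 of the 75th percentile of the array, 1 array a group; the solid line marks equal levels and the dashed lines 2-fold. Ren1, Ren2 and the stefin A genes stand above the upper line, and Hspa1a, Hspa1b and Dnajb1 below the lower one.

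**Figure D2:**
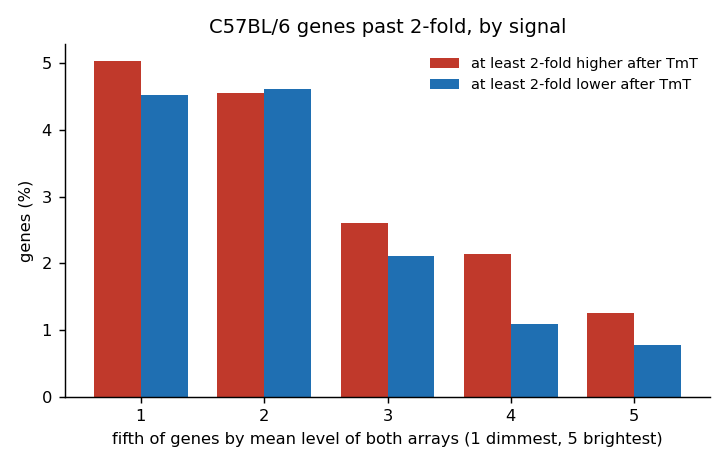
Percent of genes at least 2-fold higher (red) or lower (blue) after TmT in C57BL/6, in 5 bins of the measured genes by mean level, 3733 genes a bin. Both bars shrink from the dimmest bin, where 9.56% of genes were past 2-fold in all, to the brightest, where 2.04% were.

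Where a gene had further probes, these gave a second reading on the same 2 RNA samples. Of the 582 higher genes, 101 had another measured probe, and in 7 (6.93%) every other probe was also at least 2-fold higher. These were Ren1, Csta1, Gpr83, Hdac9, Pirt, Rap1gap2 and Evpl. Of the 490 lower genes, 109 had another probe, and in 11 (10.1%) every other probe was at least 2-fold lower. Among them were Hspa1a, Fryl, Dnajb1, Hbb-bt and Ms4a7. Over all 5868 genes with several probes, every other probe was at least 2-fold in the direction of the brightest in 198 (3.37%). All other probes kept the direction in 48.5% of the higher and 59.6% of the lower genes with such probes, against 50% of all 5868 genes with several probes. Different probes of a gene can read different transcripts, so a probe that disagrees is not by itself a failed one.

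Heat shock chaperones were lower after TmT. Hspa1a and Hspa1b encode the inducible Hsp70, the chaperone with the steepest response to misfolded protein, and lie side by side on chromosome 17 with nearly the same sequence. The stretch before their start sites holds an inverted repeat of the heat shock element, the sequence that heat shock factors bind, and so does that of Hsph1, an Hsp70 partner. These 250 bases before the annotated start, from RefSeq on GRCm38.p6 and read along the gene, are shown with that repeat in capitals (GAANNTTC in the first pair of genes, TTCNNGAA in Hsph1). Hspa1a is at chr17:34972157-34972406, Hspa1b at chr17:34959239-34959488 and Hsph1 at chr5:149636337-149636586, all on the minus strand.
Hspa1a: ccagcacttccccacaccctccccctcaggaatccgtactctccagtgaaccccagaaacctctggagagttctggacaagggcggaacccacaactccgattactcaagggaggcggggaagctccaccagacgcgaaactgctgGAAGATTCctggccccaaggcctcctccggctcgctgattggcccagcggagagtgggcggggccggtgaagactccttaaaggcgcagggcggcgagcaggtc
Hspa1b: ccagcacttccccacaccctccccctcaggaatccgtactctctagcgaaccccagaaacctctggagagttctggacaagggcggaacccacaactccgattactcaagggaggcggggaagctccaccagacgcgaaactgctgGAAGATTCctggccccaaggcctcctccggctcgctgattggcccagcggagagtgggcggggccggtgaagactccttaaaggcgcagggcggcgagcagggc
Hsph1: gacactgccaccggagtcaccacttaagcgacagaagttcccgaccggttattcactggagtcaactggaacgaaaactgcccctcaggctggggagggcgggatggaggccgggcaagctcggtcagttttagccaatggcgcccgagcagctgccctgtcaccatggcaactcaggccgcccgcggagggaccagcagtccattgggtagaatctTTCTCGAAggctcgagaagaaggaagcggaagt
The Hspa1a and Hspa1b stretches share 247 of 250 bases. GAANNTTC, which reads the same on both strands, is in 6.69% of the 32851 promoters of the table, and TTCNNGAA, likewise, in 7.17%. Of the 30 genes of the heat shock list, 23 matched the table, and 10 of these held either motif in a promoter, against 14.5% of all genes. Dnajb1 and Chordc1, which were also among the lowest of the list, held neither. The median difference was -0.50 for the 10 with a motif and -0.29 for the 13 without. The 10 include the nearly identical pair Hspa1a and Hspa1b, which may count as 1 reading. Beyond that pair, Hsph1, Hspb1 and Dnaja1, the genes with a motif lay between -0.29 and 0.06. Whether the motif bears on the differences was not tested.

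Hspa1a stood at 4.25 after oil and 2.00 after TmT, a difference of -2.24 ± 0.20, and its second probe gave -2.0. The array after oil was the high one of all 4, since the TRAMP arrays had Hspa1a at 0.50 after oil and 1.76 after TmT. Hspa1b followed the same order, from 0.12 after oil to -2.45 after TmT, with -2.96 and -2.65 in TRAMP. Because the pair is nearly identical, either probe may also read the other gene. Dnajb1, the Hsp40 that hands proteins to Hsp70, stood at 6.41 and 5.24, a difference of -1.17 ± 0.20, and its second probe gave -1.48. It was at 5.21 and 4.92 in TRAMP, again below the C57BL/6 oil array. Hsph1 (-0.99), the Hsp90 co-chaperone Chordc1 (-0.99), the small heat shock protein Hspb1 (-0.92), the inducible Hsp90 gene Hsp90aa1 (-0.80), Dnaja1 (-0.72) and the collagen chaperone Serpinh1 (-0.61) came next, all short of 2-fold.

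Of the 30 chaperone genes and their factors, all measured, 3 were at least 2-fold lower and none higher, against 2.63% and 3.12% of all measured genes. A negative difference was found for 26, against 48.0% of all genes, and the median was -0.29, beside 0.02 over all genes. The 4 above 0 were Hspb6, Hspa2, the heat shock factor Hsf1 (0.43) and the testis Hsp70 gene Hspa1l (0.81). For 19 of the 30 genes, the C57BL/6 oil array was the highest of the 4 arrays, against 23.3% of all genes above background on every array. In TRAMP, the same list had a median of -0.04. Chaperones of the endoplasmic reticulum and related genes of the unfolded protein response were also lower, by less. Their list had 18 of 21 genes below 0 and a median of -0.25, with none past 2-fold. The largest differences were those of the protein disulfide isomerase Pdia4 (-0.62), the lectin chaperone Calr (-0.54), Sdf2l1 (-0.54) and the asparagine synthetase Asns (-0.52). The C57BL/6 oil array was the highest of the 4 for 15 of these 21.

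**Figure D3:**
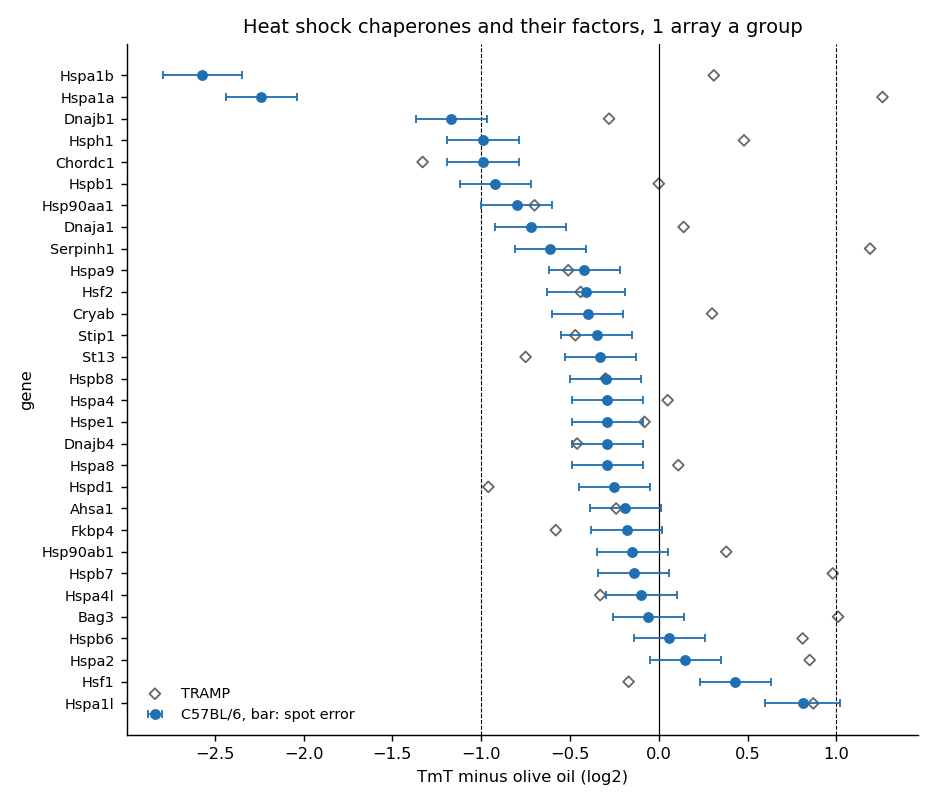
Difference between TmT and olive oil (log2) for the 30 genes of the heat shock list, in C57BL/6 (filled, bars are the spot error) and in TRAMP (open diamonds), 1 array a group. Hspa1b, Hspa1a and Dnajb1 are beyond 2-fold (dashed line) in C57BL/6, and 26 of 30 lie left of 0.

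The renin genes were among the highest after TmT. Ren1 encodes renin, which is made in granular kidney cells and also, in mice, in several androgen-responsive glands. Its level was 1.90 after oil and 4.97 after TmT, a difference of 3.07 ± 0.20, and its second probe gave 2.60. The probe named for Ren2 gave 0.90 and 4.2. The C57BL/6 strain has only the Ren1 copy, and the Ren2 probe in it can read Ren1. In TRAMP both were lower, at -3.15 and -3.11 after oil and at 1.01 and 0.19 after TmT. The other genes of the renin-angiotensin system that were measured lay between -0.47 and 0.54, with angiotensinogen (Agt) at 0.00 and the receptor Agtr1a at 0.54.

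Pnliprp1 and Wfdc3 had the direction of the renins in both lines. Pnliprp1, a pancreatic lipase relative of the secretory list, was at -0.56 after oil and 1.37 after TmT, and in TRAMP at -3.79 and -1.59. Wfdc3, a whey acidic protein family member counted below in the seminal vesicle list, stood at 4.19 and 5.63, and in TRAMP at 0.36 and 2.48. Both were lower in TRAMP than in C57BL/6 after the same gavage. The abundant secretory genes stayed within 2-fold. Pbsn, which encodes probasin, stood at 7.06 and 7.09, the transglutaminase Tgm4 at 8.01 and 8.11, and the trypsin inhibitor Spink1 at 9.07 and 9.50. The spermine-binding protein gene Sbp differed by 0.85 and Msmb, encoding β-microseminoprotein, by 0.63. Of the 18 secretory genes, all measured, 14 were above 0, 3 at least 2-fold higher (Ren1, Ren2 and Pnliprp1), 1 lower by as much (Wfdc12, -1.14), and the median was 0.22. Over all measured genes 3.12% were that much higher and 2.63% lower, and the 2 renin probes may count 1 gene. The C57BL/6 TmT array was the highest of 4 for 13 of the 17 secretory genes above background on every array, against 24.7% of all such genes. For 2 it was the C57BL/6 oil array, against 23.3%. Several of these genes were lower in TRAMP, with Pbsn at 4.11 and 5.06 and Tgm4 at 3.90 and 6.54. The share for TmT thus also carries the difference between the lines.

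Most genes of the seminal vesicle, which lies against the prostate, had lower values after TmT, but not the brightest. Svs2 stood at 6.66 after oil and 6.49 after TmT, Svs4 at 8.50 and 9.0, and Svs5 at 9.76 and 10.02, so the summed linear signal of the list, in units of the 75th percentile, was 2155.88 after oil and 2308.84 after TmT. Of 14 genes measured, 11 were below 0, against 48.0% of all genes, with a median of -0.39. At least 2-fold lower were 3, against 2.63% of all genes, and 1, Wfdc3, was higher, against 3.12%. Slpi, a leukocyte protease inhibitor, was at -0.74 and -2.81, Sval2 at -0.48 and -2.27, and Sva at 4.09 and 2.72. In TRAMP, Sva (-3.62) and Sval2 (-2.32) were also lower after TmT, and Slpi was at -0.47. Fewer cells of a type and less RNA per cell cannot be told apart in such bulk tissue, here or in the groups below.

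The measured stefin A genes of a cluster on chromosome 16 were all higher after TmT. Stefins are small cytosolic inhibitors of cathepsins, and mice have a run of stefin A copies where other mammals have few. The group was noticed after its values were seen, so its size is a description. The probes of its 9 members lie within chr16:36122294-36450752 (mm9), and all 6 members measured on both arrays were at least 2-fold higher, with differences from 1.36 to 2.25. Csta1 stood at -0.51 after oil and 1.66 after TmT, and its second probe gave 2.15. Cstdc5 stood at -0.26 and 1.99, Stfa1 at -2.66 and -0.54, Stfa2l1 at -3.36 and -1.31, Csta2 at -3.75 and -1.91, and Stfa3 at -1.47 and -0.11. The 3 others, Stfa2, Cstdc3 and Cstdc4, were not well above background on either array. EG627962, a predicted gene in the same stretch that is not counted in the family, was measured at 0.13. An unnamed transcript between Csta1 and Stfa2l1, also not counted, was at -4.37 after oil and -1.59 after TmT. Its difference of 2.78 was larger than that of any measured member. Members were counted by gene symbol, so whether this transcript is a further copy was not tested. The 5 measured members that were also above background on both TRAMP arrays were higher there after TmT, by 0.43 to 1.24, so the direction was shared and the size was smaller. Cstb, the stefin B gene on another chromosome, differed by 0.10. The members are close copies, and a probe of one may read another, so the 6 differences are not 6 separate readings. Stefin A copies are known in neutrophils, in which S100a9 and Ltf are abundant. S100a9 differed by -1.71 and Ltf by -1.13, and S100a8, Ngp, Camp, Elane and Csf3r, also of neutrophils, were not well above background on either array. S100a9 was dim, at -4.06 after TmT, where the lowest level well above background was -4.57. Whether neutrophil content bears on the stefin values was not tested.

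The stretches before the starts of these genes are alike as well. They are shown, with the longest run of letters common to all 5 in capitals, for the measured members other than Csta2, 250 bases from RefSeq on GRCm38.p6, read along the gene. Csta1 is at chr16:36131190-36131439 (minus strand), Stfa2l1 at chr16:36156561-36156810 (plus), Stfa1 at chr16:36276898-36277147 (plus), Cstdc5 at chr16:36367571-36367820 (minus) and Stfa3 at chr16:36455393-36455642 (minus).
Csta1: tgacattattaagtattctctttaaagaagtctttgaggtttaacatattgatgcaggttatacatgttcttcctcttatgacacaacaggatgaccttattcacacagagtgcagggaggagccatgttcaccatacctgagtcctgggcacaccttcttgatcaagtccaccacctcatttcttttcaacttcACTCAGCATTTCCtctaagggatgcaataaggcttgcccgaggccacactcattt
Stfa2l1: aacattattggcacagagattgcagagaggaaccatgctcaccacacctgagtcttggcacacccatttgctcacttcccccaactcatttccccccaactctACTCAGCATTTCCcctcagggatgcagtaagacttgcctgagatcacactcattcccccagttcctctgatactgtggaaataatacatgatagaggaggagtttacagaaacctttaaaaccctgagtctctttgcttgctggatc
Stfa1: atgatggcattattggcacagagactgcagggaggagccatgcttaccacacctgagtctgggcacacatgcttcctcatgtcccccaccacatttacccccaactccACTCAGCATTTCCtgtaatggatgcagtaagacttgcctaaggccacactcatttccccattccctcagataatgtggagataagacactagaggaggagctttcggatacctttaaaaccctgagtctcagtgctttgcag
Cstdc5: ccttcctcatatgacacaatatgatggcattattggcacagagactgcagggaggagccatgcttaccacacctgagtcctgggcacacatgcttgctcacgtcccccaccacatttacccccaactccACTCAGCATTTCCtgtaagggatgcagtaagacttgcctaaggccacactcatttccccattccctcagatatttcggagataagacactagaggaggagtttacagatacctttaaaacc
Stfa3: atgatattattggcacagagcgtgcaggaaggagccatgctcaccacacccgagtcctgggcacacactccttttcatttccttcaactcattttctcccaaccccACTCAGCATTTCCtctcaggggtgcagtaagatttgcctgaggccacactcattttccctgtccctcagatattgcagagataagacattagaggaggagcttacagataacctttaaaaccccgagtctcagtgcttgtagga
The run of 13 bases, ACTCAGCATTTCC, is in 9 of the 32851 promoters when both strands are searched (0.0274%), and all 9 are on chromosome 16. Besides the 5 shown they include Stfa2 and Cstdc3, which were not above background on either array. Pairs of these 5 stretches were identical at 45.8% to 83.5% of aligned positions. The stretch before Csta2, not shown, was identical to the 5 at 43.7% to 46.8% and lacks the run. The run was found by comparing the stretches and is not tied to a known factor here.

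**Figure D4:**
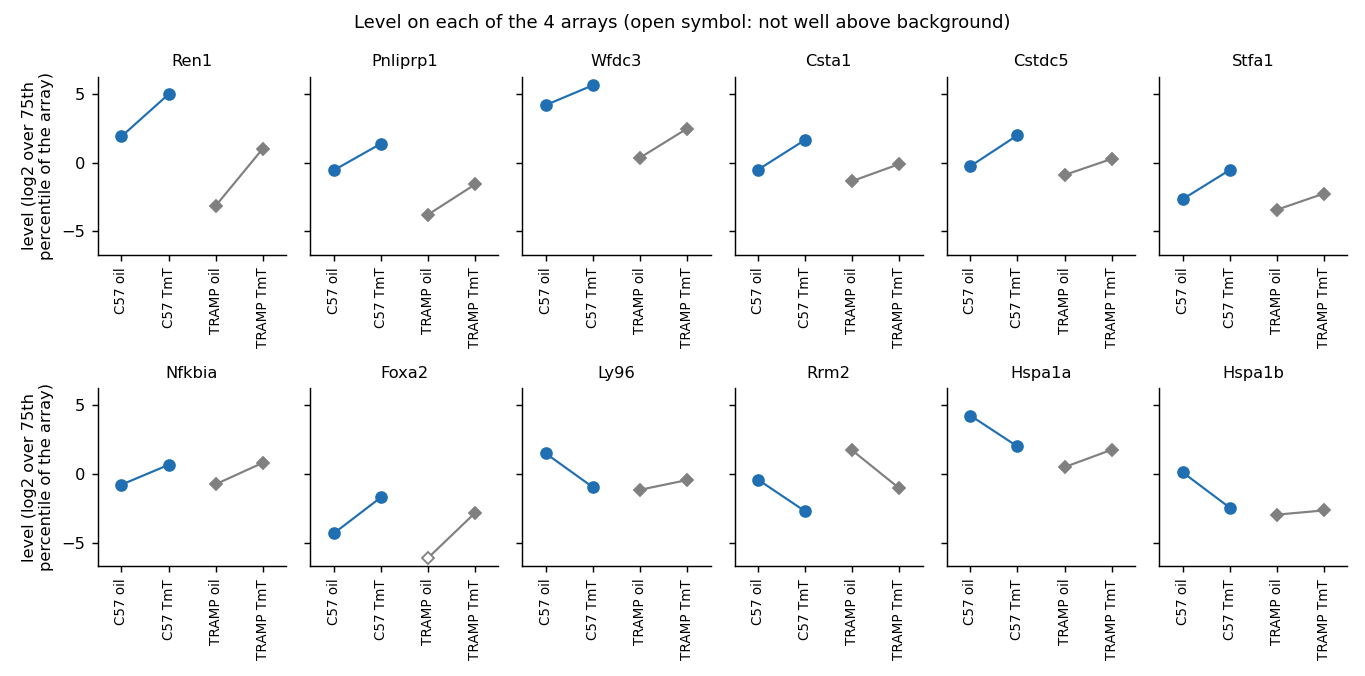
Level (log2 over the 75th percentile of the array) of 12 genes on each of the 4 arrays, C57BL/6 in blue circles and TRAMP in grey diamonds, with a line from oil to TmT in each line; open symbols are not well above background. Ren1, Pnliprp1, Wfdc3, the stefin genes and Nfkbia are higher after TmT in both lines, while Hspa1a is lower in C57BL/6 (-2.24) and higher in TRAMP (1.26).

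The highest genes beside these were a mixed set, and for most of them the array after oil was the low one of the 4. Tex19.1, a germ cell gene, was at -4.50 after oil and -0.44 after TmT, and Scgb2b20, a secretoglobin of the androgen-binding protein family, at -3.84 and 0.21. In TRAMP, Tex19.1 was at -0.52 and -1.21 and Scgb2b20 at 2.24 and 0.55, so both were lower after TmT there. Foxa2, a forkhead factor of endoderm and of neuroendocrine prostate cells, has a probe printed 10 times. Its 10 spots averaged -4.33 ± 0.39 (SD) after oil and -1.71 ± 0.16 after TmT, and the ranges did not overlap, from -5.04 to -3.90 and from -1.91 to -1.40. In TRAMP, Foxa2 was not well above background after oil and stood at -2.84 after TmT. The next were the deubiquitinase gene Stambp (2.60), the ribonuclease subunit Rnaseh2b (2.50), the ion channel Asic2 (2.45), the connexin Gja10 (2.41), the adaptor Apba1 (2.41), the cell cycle regulator Cdk2ap1 (2.41), the calcineurin subunit Ppp3cc (2.39), the mitochondrial ribosomal gene Mrps7 (2.38), the membrane insertion factor Emc2 (2.38) and the splicing regulator Ptbp2 (2.35). Of the 15 highest genes, 10 were lowest on the C57BL/6 oil array and 12 highest on the C57BL/6 TmT array. Other probes of Rnaseh2b (0.63), Mrps7 (0.14), Ppp3cc (-0.19 and 0.42) and Ptbp2 (-0.31 and 0.17) gave less than 2-fold, so these differences rest on 1 probe each.

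The lowest genes beside the heat shock pair began with Ncstn, a subunit of γ-secretase (-2.47), and Ly96. Ly96 encodes MD-2, which presents lipopolysaccharide to Toll-like receptor Tlr4, and stood at 1.49 after oil and -0.97 after TmT. In TRAMP it was at -1.15 and -0.44, so the C57BL/6 oil array was the high one. Egfl6, a secreted EGF-like protein, was at -1.34 and -3.77, and Fryl at 3.87 and 1.87, with its other probes at -1.10 and -1.07 and -1.21 in TRAMP. Fryl thus had the same direction on every reading. Rrm2, the small subunit of ribonucleotide reductase, was at -0.42 and -2.72, and in TRAMP at 1.71 and -1.05. The remaining ones were Wipf3 (-2.17), Tcf23 (-2.13), Adam4 (-2.11), Gpr82 (-2.10), Spag7 (-2.09), Slpi, the growth-linked gene Shcbp1 (-2.07) and the DNA repair gene Brca1 (-2.02). Of the 15 lowest, 9 were highest on the C57BL/6 oil array and 9 lowest on the C57BL/6 TmT array.

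Some genes were above background on only one of the 2 arrays, and for these a difference is a bound, the bright array over the lowest signal that counts as measured on the dim one, or over the dim probe itself where that is higher. There were 2122 such genes, 289 seen only after TmT and 1833 only after oil, the brighter array. Sptssb, of serine palmitoyltransferase, was at least 6.42-fold higher after TmT, the progesterone receptor gene Pgr at least 6.00-fold, Ttc36 at least 5.46-fold, Zfp708 at least 5.43-fold, the recombination gene Brca2 at least 5.42-fold and Bmp5 at least 5.37-fold. Seen after oil only, the amino acid transporter gene Slc38a4 was at least 15.8-fold lower after TmT, Lgi1 at least 7.37-fold, the neuronal protease Prss12 at least 6.21-fold, the superoxide-producing oxidase Nox4 at least 5.93-fold, Tspan32 at least 5.88-fold and St8sia2 at least 5.68-fold. Slc38a4 and Lgi1 each had another probe measured on both arrays, at -0.88 and 0.20, so their bounds hold for 1 probe.

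Nrf2 targets and antioxidant enzymes were level between the groups. Of the 49 genes listed, 43 were measured, and none was past 2-fold in either direction, beside 5.74% of all genes. The list was bright, with median levels of 2.34 after oil and 2.13 after TmT. These lie in the range of the brightest bin, where only 2.04% of genes were past 2-fold. Of the 43 genes, 20 were above and 23 below 0, and the median difference was -0.02. The quinone reductase gene Nqo1, a standard readout of Nrf2, was at 0.82 after oil and 1.23 after TmT, a difference of 0.41 ± 0.20. In TRAMP it was at 1.84 and -0.70. Hmox1, which encodes the haem oxygenase that Nrf2 and Bach1 control, differed by 0.04, and Gclc, the catalytic subunit of glutathione synthesis, by -0.12. The widest differences were those of the glutathione peroxidase Gpx2 (-0.76), the exporter Abcc4 (-0.70), the cystine transporter Slc7a11 (0.64) and the transferase Gsta4 (-0.60). The brightest members were also within 2-fold, with Gpx1 at 7.18 and 7.06, Sod1 at 6.99 and 7.35, Prdx6 at 6.31 and 6.68 and Txn1 at 5.78 and 5.79. Nfe2l2, the Nrf2 gene itself, differed by -0.06 and Keap1 by 0.28. None of the 9 regulators reached 2-fold, the widest being Bach1 (-0.57) and the small Maf genes Maff (0.49), Mafk (0.49) and Mafg (-0.39).

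Genes that handle vitamin E were likewise within 2-fold, or not seen. Ttpa and the γ-tocopherol oxidase gene Cyp4f14 were not well above background on either array. Of 29 listed genes, 19 were measured, with a median of -0.09. Sec14l2, which encodes a tocopherol-associated protein, differed by 0.37. The cholesterol and tocopherol exporter Abca1 was at 2.83 and 1.94 (-0.89), and in TRAMP at 3.19 and 1.82, the widest difference of the list. Cyp4f16 (0.70), Abcg1 (-0.55) and Pltp (-0.55) came next. Among 46 measured cytochrome P450 genes, only Cyp2c70 was past 2-fold, at -3.84 and -1.86, against 5.74% of all genes.

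Erythroid genes and macrophage and neutrophil markers were mostly lower after TmT. The chemokine (23 of 39 genes below 0), antigen presentation (13 of 18) and Toll-like receptor (10 of 15) lists leaned the same way. The lymphocyte, interferon and NF-κB lists were level. The 8 measured erythroid and platelet genes had the lowest median of all 49 lists, -0.67. Of these 8, 7 were below 0. The globin genes Hbb-bt (-1.16), Hba-a2 (-1.11) and Hba-a1 (-0.98) and the platelet chemokine Pf4 (-1.06) stood well below, and other globin probes of Hbb-bt gave -1.46 to -1.16. The erythroid marker Alas2 went the other way, at 0.79 after oil and 0.96 after TmT (0.17). Hbb-bt was at 5.13 after oil and 3.97 after TmT, with 3.57 and 3.74 in TRAMP. The 10-spot probe of Tfrc, the transferrin receptor, was at 2.33 ± 0.07 (SD over 10 spots) and 1.08 ± 0.11. Of 23 macrophage and neutrophil markers measured, 18 were below 0, against 48.0% of all genes, and the median was -0.41. At least 2-fold lower were 5, against 2.63% of all genes, and none was higher. Those 5 were Laptm5 (-1.73), S100a9 (-1.71), the complement gene C1qa (-1.17), Ltf (-1.13) and the Fc receptor Fcgr3 (-1.01). They did not all go together, since Csf1r (0.15), Cd68 (0.12), C1qb (0.38) and Cd14 (0.87) were above 0. In TRAMP the list had a median of 0.30. Antigen presentation genes included 3 at least 2-fold lower, Tap1 (-1.18), H2-Aa (-1.05) and H2-DMb2 (-1.02), among 18 with a median of -0.17 (2.63% of all genes were that much lower), while H2-Ab1 was at 0.27 and Cd74 at -0.10. Of 15 Toll-like receptor genes, Ly96 and its relative Ly86 (-1.20) were at least 2-fold lower, against 2.63% of all genes, and Tlr4 was at -0.55. Among 39 chemokine genes and receptors (median -0.35), Ccl6 (-1.27) and Cxcl1 (-1.09) were at least 2-fold lower, against 2.63% of all genes. Cxcl10 (1.01) was at least 2-fold higher, against 3.12%. The 18 measured lymphocyte markers had 8 above and 10 below 0 and a median of -0.03. The T cell gene Cd8b1 (1.60) was at least 2-fold higher, against 3.12% of all genes. The immunoglobulin joining chain gene Jchain (-1.07) was at least 2-fold lower, against 2.63%. Interferon-stimulated genes (median 0.01) and NF-κB genes (0.03) were level as well. Endothelial genes had 15 of 20 below 0 and a median of -0.32, and none past 2-fold, led by the VEGF receptor Kdr (-0.91) and the lymphatic marker Lyve1 (-0.82). How far these lists carry one shared difference in blood content was not tested.

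**Figure D5:**
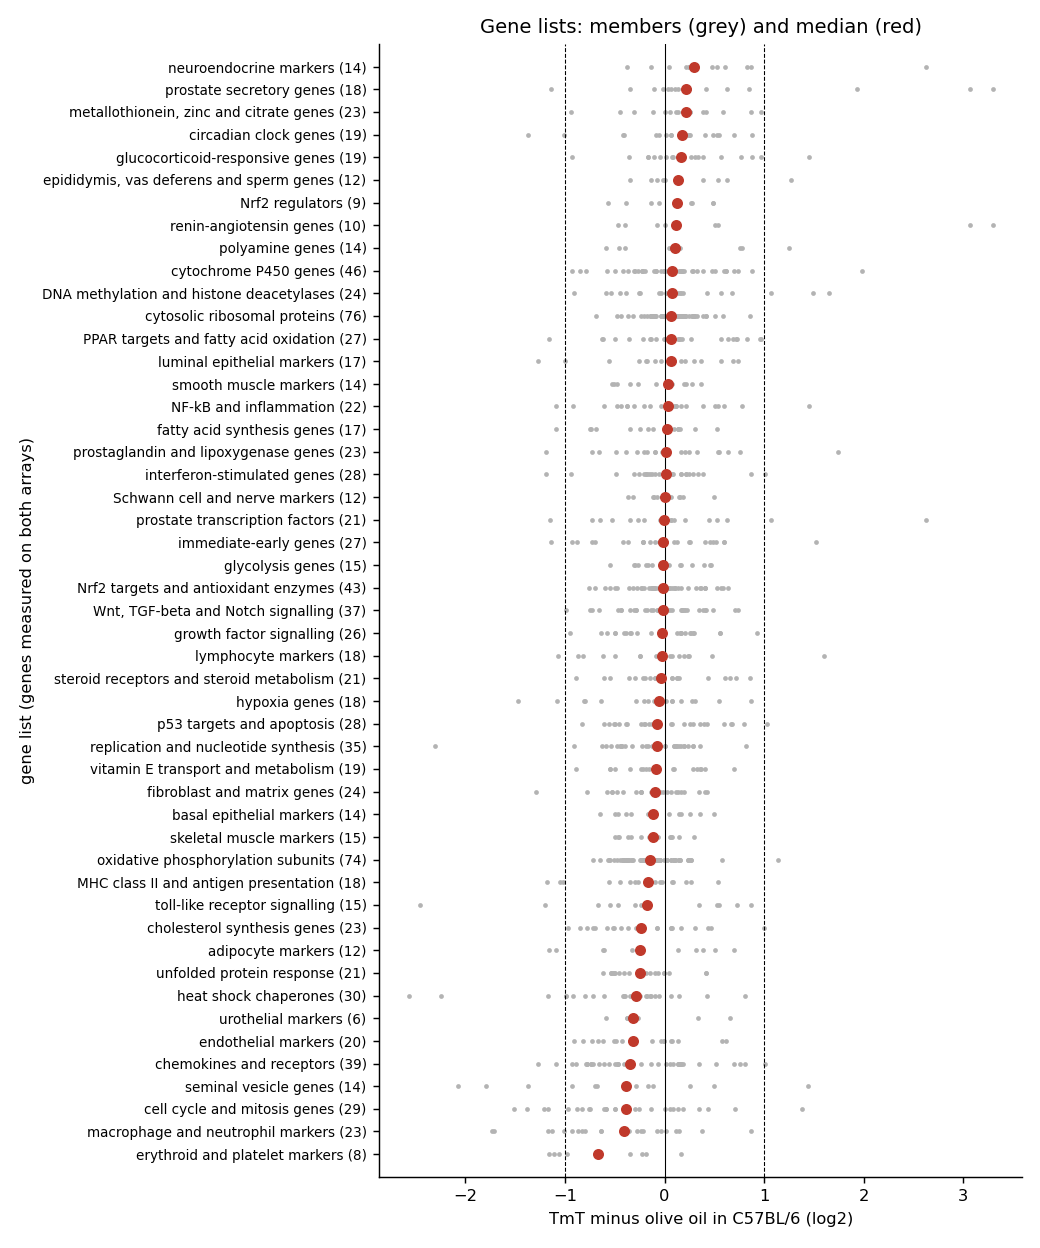
Difference between TmT and olive oil in C57BL/6 (log2) for the measured genes (grey) and the median (red) of each of the 49 gene lists, with the number of measured genes in brackets and dashed lines at 2-fold. Medians run from -0.67 for erythroid and platelet markers to 0.30 for neuroendocrine markers, against 0.02 over all genes.

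Cell cycle and mitosis genes were mostly lower after TmT, and replication genes were level. Of 29 cell cycle and mitosis genes measured, 21 were below 0, against 48.0% of all genes, with a median of -0.39. At least 2-fold lower were 4, against 2.63% of all genes, and 1 was higher, against 3.12%. The list was dim, with median levels of -1.28 after oil and -1.62 after TmT. These lie in the range of the second dimmest bin, where 172 of 3733 genes were at least 2-fold lower and 170 higher. The spindle protein Tpx2 was at -1.43 and -2.94, the cyclin genes Ccna2 at -1.99 and -3.36 and Ccnb1 at -1.28 and -2.45, and the phosphatase gene Cdc25c at -1.66 and -2.87. Foxm1, a transcription factor of this programme, stood against them, at -3.21 and -1.83. A further 4 genes of the list, Cdk1, Aurkb, Bub1b and Kif11, were above background after oil only, as were 1833 of the 2122 genes seen on a single array. For 20 of the 29 genes, the C57BL/6 TmT array was the lowest of 4, against 20.3% of all genes. For 8 it was the C57BL/6 oil array, against 21.9%. A C57BL/6 array was thus the lowest for nearly all of them, so the share for TmT also carries the difference between the lines. The marker Mki67 differed by -0.39 and Top2a by -0.26. Of 35 replication and nucleotide synthesis genes, only Rrm2 was past 2-fold, against 5.74% of all genes. In that list 15 were above and 20 below 0, and the median was -0.08. Mcm2, Mcm4, Mcm5, Mcm6 and Mcm7 of the replicative helicase lay between -0.19 and 0.24, while Mcm3 was at -0.43 (second probe -1.24), Mcm10 at -0.63 and the licensing factor Cdt1 at 0.82.

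Neuroendocrine and zinc genes were mostly a little higher after TmT. Of 14 neuroendocrine markers measured, 12 were above 0 and the median of 0.30 was the highest of the lists. Foxa2 was the only one past 2-fold, against 5.74% of all genes. The granule genes Chgb (0.87) and Syp (0.83) and the ubiquitin hydrolase Uchl1 (0.61) followed. The 10-spot probe of Sst, the somatostatin gene, was at -2.96 ± 0.13 (SD over 10 spots) after oil and -1.42 ± 0.08 over 9 unmarked spots after TmT, with no overlap of spots, and in TRAMP it differed by 1.37. Of 23 metallothionein, zinc and citrate genes, 19 were above 0, none past 2-fold, with a median of 0.22. Metallothionein Mt1 was at 4.59 and 5.56 and Mt2 at 8.29 and 8.68, and in TRAMP they differed by 1.25 and 1.53. The zinc transporter Slc39a10 (-0.94) stood against them.

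In other lists single genes were past 2-fold while the list medians lay between -0.25 and 0.18. Nfkbia, which encodes the inhibitor of NF-κB and is induced by glucocorticoids and by NF-κB itself, was at -0.78 and 0.66, and in TRAMP at -0.75 and 0.81, nearly the same levels in both lines. Of the 19 glucocorticoid-responsive genes measured, Nfkbia among them, 13 were above 0 and 6 below, with a median of 0.17. Mt1 was at 0.97, Per1 at 0.88, Klf15 at 0.77, Tsc22d3 at 0.01, Fkbp5 at -0.11 and Dusp1 at -0.93. Among 24 genes of DNA methylation and histone deacetylation, Hdac5 (1.65), Hdac9 (1.49) and Hdac8 (1.07) were at least 2-fold higher, against 3.12% of all genes. The second probe of Hdac9 gave 1.02 and that of Hdac8 gave -0.04. Dnmt1 differed by -0.04 and Dnmt3a by 0.05. Of 19 clock genes, the repressor Cry2 (-1.37) and the output factor Hlf (-1.01) were at least 2-fold lower, against 2.63% of all genes. Nr1d1 (0.23), Dbp (0.41) and Per2 (0.07) were not far from 0. Akr1b7, an aldose reductase relative of the vas deferens, was at 4.78 and 6.05, and in TRAMP at 1.03 and 5.23. The adipocyte and lipid genes Fabp4 (-1.16) and Thrsp (-1.09) were at least 2-fold lower, against -3.59 and -3.10 in TRAMP, while Cidec (0.70) and Adipoq (-0.62) differed in sign. Cytosolic ribosomal protein genes, a large and bright set, had a median of 0.07 over 76 genes with none past 2-fold.

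The 2 comparisons of TmT with oil share no array, so C57BL/6 and TRAMP can be set side by side. Of the 468 genes at least 2-fold higher in C57BL/6 and above background on all 4 arrays, 85 (18.2%) were at least 2-fold higher in TRAMP and 38 (8.12%) at least 2-fold lower, against 8.37% and 4.84% of all 16961 genes above background on all 4. Of the 434 lower genes, 49 (11.3%) were at least 2-fold lower in TRAMP and 53 (12.2%) at least 2-fold higher. Among the higher genes, the C57BL/6 oil array was the lowest of the 4 in 69.9%, against 21.9% of all genes, and among the lower ones the C57BL/6 TmT array was the lowest in 76%, against 20.3%. A gene chosen for a large difference between 2 arrays tends to have one of them at an extreme, so these shares describe the lists. Among the genes shared between the lines were the renin genes, Pnliprp1, Wfdc3, Akr1b7, Nfkbia, Sst, the stefin genes Csta1, Cstdc5 and Stfa1, and, downward, Rrm2, Fryl, Sva, Sval2, Fabp4 and Thrsp, each at least 2-fold in both.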

How the data were processed

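Whole-genome arrays of 1 colour were read from the authors' deposited scanner files, made with Agilent Feature Extraction 10.2.1.3 per the file headers. The intensity used is the processed signal, which the authors deposited after the scanner software's background subtraction. The deposited value table held the same signal. Control spots and outlier spots were left out, spots of a probe were averaged, and levels were log2 signal minus log2 of the array's 75th percentile. The brightest probe stood for a gene. All 4 arrays were on 1 slide, each group at its own position, so group and position cannot be told apart. The precision is limited by 1 array a group, and no test was made. Counts use 2-fold. Gene names follow the files, updated through RefSeq accessions for 24844 of 41174 probes.

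Genes named are the 15 highest and 15 lowest, 6 bounds per direction, up to 4 per list with those past 2-fold, and a set named whatever its value. Some of that set are not reported here. Further genes, among them the stefin genes, Sst and Tfrc, were chosen after their values were seen. The comparison, members and lists were chosen with earlier results of these data known. Alternatives changed the background correction (normexp), scaling, filter, probe rule and fold. Counting was tested on simulated data. R 4.3.3, limma 3.58.1, Python 3.11.15, numpy 2.4.6 and pandas 2.3.3 were used.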

Additional observations from a re-analysis of the deposited data

Results flagged for a closer look

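For 6 of the named genes, the difference between TmT and oil was at least 2-fold one way in C57BL/6 and at least 2-fold the other way in TRAMP, with 1 array on each side. The difference between the lines was not tested. Scgb2b20 was higher after TmT in C57BL/6 (4.05) and lower in TRAMP (-1.70). Stambp had 2.60 in C57BL/6 and -1.10 in TRAMP. Hspa1a had -2.24 in C57BL/6 and 1.26 in TRAMP. Psca, which encodes prostate stem cell antigen, had -1.27 and 2.96, the early response gene Ier3 had -1.14 and 1.36, and lactoferrin (Ltf) had -1.13 and 1.10. Over all genes above background on the 4 arrays, 91 had such opposite differences and 134 were past 2-fold the same way in both lines.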

How the results depend on the processing

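Quantile normalization, median centring, loess between the 2 arrays, keeping outlier spots, the deposited value table, the mean over a gene's probes and a filter on all 4 arrays kept both counts of genes past 2-fold within 1.5 times, and no named gene past 2-fold reversed under them. Of 97 named genes past 2-fold, 85 were still so with the mean over probes, 92 with median centring and 93 each with quantile and loess. Without the background filter, 1372 genes were higher and 1871 lower. At 3-fold the counts were 131 and 82, and at 1.5-fold 2047 and 1838. The planned normexp correction (offset 50) gave 6043 higher and 4637 lower, a heat shock median of -2.65 and an Nrf2 target median of -1.73, with the median of all genes at 0.36. Its fit took in 17 spots of very high local background on the C57BL/6 TmT array. Under it 39 of the 97 named genes past 2-fold had the opposite sign, and 53 of the 97 were past 2-fold in either direction. Among those of opposite sign were Tap1 1.04, Jchain 1.04, Rrm2 0.40, Sval2 0.27, C1qa 0.48, Thrsp 0.43, Shcbp1 1.14, Ier3 0.76, Wipf3 0.10, Akr1b7 -1.26, Spag7 0.82, Cxcl1 1.27, Tpx2 0.83, Ncstn 0.90, Laptm5 1.22, S100a9 1.27, Ly86 0.13, Brca1 0.97, Ccna2 1.15, Wfdc12 0.40, H2-DMb2 1.41, Ltf 0.41, Gpr82 1.03, Cry2 0.68, Cdc25c 0.97, Tcf23 1.11, Wfdc3 -0.98, Adam4 0.99, Slpi 0.39, Ccnb1 0.76, Egfl6 0.92, Evpl -1.42 and Pirt -0.35. A normexp fit without such spots, chosen after seeing the data, gave 122 higher and 56 lower and reversed none of the named genes, with 36 of 97 still past 2-fold. Scaling on spike-in probes was not run, since 3 of 10 were mostly above background on both arrays. No paired analysis was possible because each group has 1 array. Animal-to-animal spread is unknown, and signal near background limits the dim genes.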
